A study of Mus musculus with 26 samples.

Results

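The lysosomal hydrolases, the cathepsins and the proton pump that acidifies the lysosome were followed as a set of 47 genes across antigen-presenting cells. The cells came from wild-type mice and from mice labelled as lacking the kinase mTOR in such cells. The members were chosen by symbol from knowledge of the organelle, with earlier results of these data known. All 47 were among the 23420 symbols of the expression table. They comprised 16 genes of the vacuolar proton pump, 10 cathepsins, 12 other hydrolases, and 9 lysosomal membrane proteins with the cofactors of hydrolases and lipid handling. The series holds 26 RNA-seq libraries in 10 groups. Each cell type was sampled from mice labelled mTORΔAPC (KO), a label for loss of mTOR in antigen-presenting cells, and from littermates of wild type (WT). Dendritic cells (DCs) of the spleen had been purified by FACS as CD8a DCs and as CD11b DCs, with 2 libraries per genotype each. Lung CD11b DCs and alveolar macrophages had 3 libraries per genotype, and all these cells were taken at steady state. Inflammatory DCs, again 3 libraries per genotype, were sorted from lungs exposed to house dust mite through the nose, and carry the label day 17. The labels name neither the mTOR allele nor the Cre driver, and give no age for the animals.

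Lysosomes degrade material taken up by endocytosis and phagocytosis, and their hydrolases work at the acid pH that the vacuolar proton pump maintains with energy from ATP. In DCs and macrophages the same proteases cut antigens into peptides for MHC class II and trim the invariant chain, while acid lipase and the sphingolipid enzymes clear engulfed lipid. Active mTOR on the lysosomal surface is known to hold transcription factors of the TFEB family in the cytosol, and these factors bind an E-box motif found in many promoters of lysosomal genes.

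Values are normalised counts, that is reads divided by a size factor of the library, and differences are log2 differences fitted with limma on log2(normalised count + 1). A gene was called higher or lower when its adjusted p lay under 0.05 over all 13311 genes tested. Since no label ties a sample to an animal, the p-values measure the spread between these samples only. The libraries held 7.37 to 14.1 M reads. Mtor lay between 332 and 476 in the WT libraries and was lower in all KO libraries, between 40.0 and 104 in spleen cells and alveolar macrophages, at 297, 316 and 169 in lung CD11b DCs, and between 196 and 236 in inflammatory DCs. KO here names the label, since much of the Mtor signal remained in lung CD11b DCs and inflammatory DCs. Transcripts of the Y chromosome summed to at most 2.28 in the steady-state WT libraries but to between 660 and 3295 in the KO libraries of spleen and alveolar macrophages. Sex and genotype therefore cannot be told apart in those cell types. In lung CD11b DCs this sum was 1318 in KO replicate 1 and 0.82 and 1.35 in the other KO libraries, and it was high in all libraries of inflammatory DCs. The members Atp6ap1, Atp6ap2, Lamp2 and Gla lie on the X chromosome. The cells labelled inflammatory DCs held little of the DC genes Flt3 (129 ± 35.6 in WT, SD, n = 3, against 2654 ± 702 in WT lung CD11b DCs) and Zbtb46 (97.0 ± 12.3 against 1033 ± 279.6). They held much of the alveolar macrophage markers Chi3l3 (911564 ± 194932 in WT) and Car4 (6692 ± 5179.5). These are examples from longer marker lists. All 10 alveolar macrophage markers were called higher than in WT lung CD11b DCs, with a median log2 difference of 2.22. In WT alveolar macrophages that median was 6.47. All 7 conventional DC markers were called lower than in WT lung CD11b DCs. Their sum was 193483 to 227414, against 631619.6 to 730485 in WT lung CD11b DCs and 19590 to 20733 in WT alveolar macrophages.

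To show the letters behind the E-box, the stretches before the annotated starts of several members are printed, with each CACGTG in capitals (5′ to 3′, RefSeq starts, build GRCm38.p6, without bases that fall in an annotated exon). Lamp1, which encodes the most abundant glycoprotein of the lysosomal membrane, held 4 matches in chr8:13158911-13159160 (plus strand), with first bases 61, 45, 28 and 15 before the start. Mcoln1, a lysosomal cation channel, lies at chr8:3500269-3500456 (plus strand), and Atp6v0b, a subunit of the proton-conducting ring, at chr4:117887334-117887579 (minus strand). The stretch of Lgmn, the asparagine endopeptidase legumain, is chr12:102439093-102439342 (minus strand), and that of the cathepsin Ctsf is chr19:4854915-4855129 (plus strand). Cd63, a tetraspanin of late endosomes, at chr10:128909095-128909344 (plus strand), and Ctsk, a collagen-degrading cathepsin, at chr3:95498960-95499209 (plus strand), are shown because both varied widely between cell types and hold no CACGTG in the printed letters. The Lgmn and Cd63 stretches lie inside the GENCODE M21 spans of these genes, chr12:102394084-102439813 and chr10:128900989-128912822. They precede RefSeq starts within those spans. Where a gene had several RefSeq starts, one with CACGTG before it was printed if there was one.
Lamp1: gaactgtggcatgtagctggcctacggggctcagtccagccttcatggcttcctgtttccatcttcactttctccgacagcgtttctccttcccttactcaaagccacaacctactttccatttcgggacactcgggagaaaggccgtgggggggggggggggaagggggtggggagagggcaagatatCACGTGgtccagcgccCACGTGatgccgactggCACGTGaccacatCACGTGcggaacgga
Mcoln1: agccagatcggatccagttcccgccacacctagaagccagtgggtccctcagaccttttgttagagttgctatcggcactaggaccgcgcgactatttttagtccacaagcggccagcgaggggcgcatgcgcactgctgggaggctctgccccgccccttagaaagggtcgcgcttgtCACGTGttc
Atp6v0b: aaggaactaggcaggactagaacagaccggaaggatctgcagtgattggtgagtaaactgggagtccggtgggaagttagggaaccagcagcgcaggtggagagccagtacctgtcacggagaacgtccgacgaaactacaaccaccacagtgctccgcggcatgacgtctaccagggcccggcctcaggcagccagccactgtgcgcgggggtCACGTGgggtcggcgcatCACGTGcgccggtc
Lgmn: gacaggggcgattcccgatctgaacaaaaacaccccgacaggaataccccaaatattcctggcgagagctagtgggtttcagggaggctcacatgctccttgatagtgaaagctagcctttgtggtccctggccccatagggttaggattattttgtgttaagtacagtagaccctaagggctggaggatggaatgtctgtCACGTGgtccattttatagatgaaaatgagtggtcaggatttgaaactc
Ctsf: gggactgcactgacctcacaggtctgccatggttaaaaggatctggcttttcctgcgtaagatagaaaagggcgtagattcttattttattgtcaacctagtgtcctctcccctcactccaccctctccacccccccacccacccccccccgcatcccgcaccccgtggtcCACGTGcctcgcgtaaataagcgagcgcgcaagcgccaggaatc
Cd63: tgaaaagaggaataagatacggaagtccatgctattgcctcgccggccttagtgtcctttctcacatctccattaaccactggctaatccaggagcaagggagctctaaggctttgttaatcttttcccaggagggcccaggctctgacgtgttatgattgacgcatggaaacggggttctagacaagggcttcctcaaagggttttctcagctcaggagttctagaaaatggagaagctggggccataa
Ctsk: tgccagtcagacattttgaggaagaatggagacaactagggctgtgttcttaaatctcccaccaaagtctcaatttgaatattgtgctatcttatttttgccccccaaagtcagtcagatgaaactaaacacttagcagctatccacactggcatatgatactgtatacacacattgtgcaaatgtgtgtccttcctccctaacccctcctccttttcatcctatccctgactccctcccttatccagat

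RefSeq promoters (250 bases before to 50 after the start) were matched by symbol for 38 of the 47 members. CACGTG, a palindrome that reads the same on both strands, was present in 14 of the 38 (36.8%, exact 95% interval 21.8 to 54.0%). A symbol counted if any of its promoters held the motif. By that count the share was 8.09% of all 27025 symbols and 11.5% of the 9881 tested symbols with a promoter. Of all 32851 single promoters, 7.15% held it. The longer word TCACGTG, searched on both strands and by construction always overlapping a CACGTG, was present in 12 of the 38 (31.6%) and in 6.78% of the tested symbols. The 14 members were the pump genes Atp6v0b, Atp6v0d1, Atp6v0e and Atp6v1a, the cathepsins Ctsa, Ctsd, Ctsf and Ctsl, the hydrolases Gaa, Gla, Glb1 and Lgmn, and the membrane proteins Lamp1 and Mcoln1. Each role thus had members with the motif. Atp6v0d2, Atp6v1b2, Atp6v1c1, Atp6v1g1, Atp6v1h, Ctsb, Ctsh, Npc1 and Asah1 were not matched.

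In WT cells most members were highest in the inflammatory DCs or alveolar macrophages and lowest in the spleen DCs. In sorted bulk cells such as these, fewer cells of a type and less RNA per cell cannot be told apart. Of the 46 members tested, 34 had their highest WT mean in inflammatory DCs, 10 in alveolar macrophages and 2, Gusb and Man2b1, in spleen CD8a DCs. Lowest means fell in spleen CD11b DCs for 28, in spleen CD8a DCs for 16 and in lung CD11b DCs for 2. The whole set took 1.20 to 1.33% of reads in WT spleen CD11b DCs, 1.66 to 1.98% in spleen CD8a DCs, 1.83 to 1.93% in lung CD11b DCs, 4.37 to 4.41% in alveolar macrophages and 6.65 to 9.38% in inflammatory DCs. The ranges of the spleen CD8a and lung CD11b DCs overlapped, and the others stood apart. Cathepsins made up the largest portion in every WT group except spleen CD8a DCs. They took 0.500 to 0.581% of reads in spleen CD11b DCs and 0.777 to 0.820% in lung CD11b DCs. In alveolar macrophages they took 2.35 to 2.39% and in inflammatory DCs 3.76 to 5.42%. In spleen CD8a DCs they took 0.445 to 0.572%, and the membrane proteins with cofactors 0.680 to 0.848%. The pump took 0.203 to 0.217% in spleen CD11b DCs and 0.642 to 0.650% in alveolar macrophages. Atp6v0c, the subunit that forms most of the proton-conducting ring, was listed at 0 or at most 2.51 in every library and was not tested. A pseudogene of it was also in the table at 0, and how shared reads were assigned was not given in the sources used here.

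**Figure D1:**
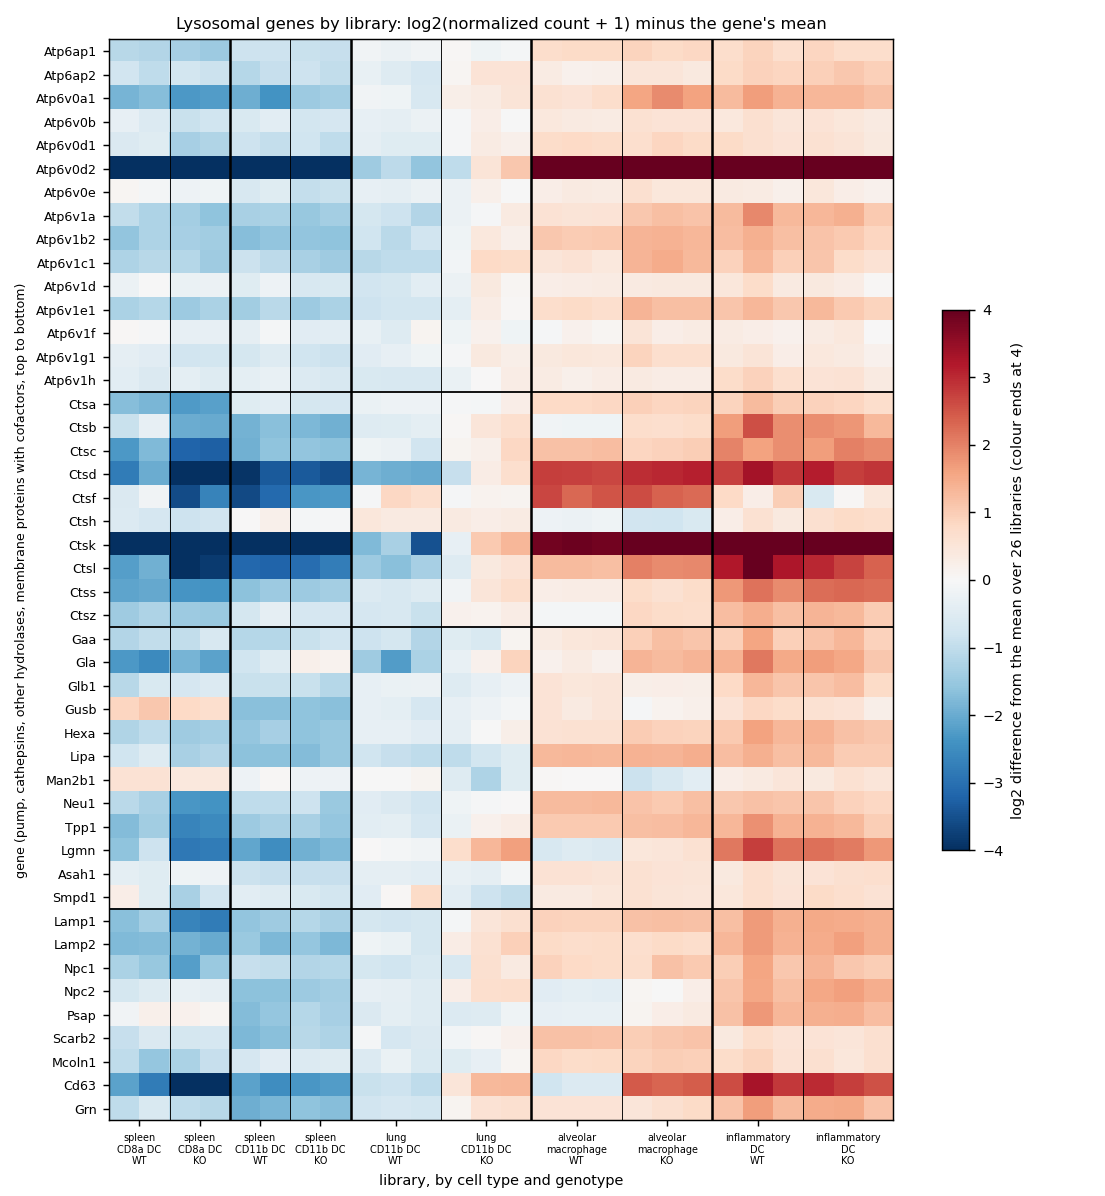
Level of each of the 46 tested members (rows, by role) in each of the 26 libraries (columns, by cell type and genotype), as the difference from the gene's mean over the libraries on the log2(normalised count + 1) scale, with colours ending at a difference of 4. Most rows are highest in alveolar macrophages and inflammatory DCs and lowest in the spleen DCs.

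Between the lung CD11b DCs and the alveolar macrophages of WT mice, 37 of 46 members were higher in the macrophages (background 24.0% of genes tested higher) and 2 were lower (background 27.2%). The median log2 difference of the members was 1.00, against -0.01 over all genes tested. Among the pump genes, 14 of the 15 tested were higher, including both catalytic-head subunits, Atp6v1a (log2 difference 1.45, limma adjusted p = 4.59e-08) and Atp6v1b2 (1.93, adjusted p = 2.94e-12). Atp6v1b2 read 2201, 1837 and 2274 in the lung DCs and 8157, 7801 and 7950.4 in the macrophages. The alternative d subunit, Atp6v0d2, best known from osteoclasts, read 183, 236 and 164 in lung CD11b DCs and 17509, 17983 and 17874 in alveolar macrophages, a log2 difference of 6.52 ± 0.33 (SE, limma adjusted p = 6.28e-14). Per kilobase of transcript, its mean in WT alveolar macrophages was 7006, against 1168 for the broadly expressed Atp6v0d1. On that scale Atp6v0d2 made up 85.6 to 85.8% of the sum of both d subunits in WT alveolar macrophages. In WT inflammatory DCs this share was 84.2 to 87.7%, in WT lung CD11b DCs 11.7 to 15.9%, and in the spleen libraries at most 0.566%. Among the cathepsins, Ctsd, the aspartic protease of lysosomes, read 4945, 4547 and 4428 in lung CD11b DCs and 121184, 118071 and 113170.2 in alveolar macrophages (4.66 ± 0.26, limma adjusted p = 5.36e-13). Ctsk read 73.7, 104 and 21.8 and 3688, 3863 and 3743 in the same order and was higher by 6.06, and Ctsl, a cysteine protease, by 2.74. The 2 members lower in alveolar macrophages were Ctsh, an aminopeptidase (-0.59, limma adjusted p = 4.65e-06), and Lgmn (-0.51, adjusted p = 0.0392). Of the other hydrolases, Lipa, the acid lipase that frees cholesterol and fatty acids, read 2699.7, 2499.6 and 2356 in lung CD11b DCs and 11605, 11929 and 11539 in alveolar macrophages (2.22 ± 0.11, limma adjusted p = 7.23e-14). The sialidase Neu1 read 564, 515 and 455 in the DCs and 1850.2, 1848 and 1889.7 in the macrophages, higher by 1.87. Among membrane proteins, Scarb2, the receptor that carries glucocerebrosidase to the lysosome, read 1315, 859 and 921 and 3112, 3118 and 3032, higher by 1.61. Lamp1 was higher by 1.62. None of these genes overlapped between the 2 cell types.

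Inflammatory DCs of WT mice exceeded lung CD11b DCs in 42 of 46 members (background 23.7% higher and 23.8% lower), with a median log2 difference of 1.80 against -0.01 over all genes. Both comparisons use the same lung CD11b libraries. Transcripts of the Y chromosome summed to 1420 to 2523 in WT inflammatory DCs and to at most 1.61 in WT lung CD11b DCs. Sex and house dust mite exposure therefore cannot be told apart from cell type in this comparison. All 15 tested pump genes and all 9 membrane proteins with cofactors passed the test. Ctsl read 9786, 23185 and 10145 in WT inflammatory DCs, a log2 difference of 5.12 ± 0.26 (SE, limma adjusted p = 5.98e-13). Cd63 read 11070.4, 17546 and 12665 (3.82 ± 0.19, adjusted p = 5.98e-13). Replicate 2 held more than the other 2 WT libraries for both genes. Ctsk read 19382, 15180.5 and 13229 in these cells and 73.7, 104 and 21.8 in lung CD11b DCs (8.13 ± 0.47, limma adjusted p = 4.19e-12). Ctsz, a carboxypeptidase, read 28473, 32956 and 28063 and was higher by 2.04. The subunit Atp6v1b2 read 9125, 10346 and 8821 (2.17 ± 0.12, adjusted p = 2.13e-12). Both genes stood apart from lung CD11b DCs in every library. Lipa was higher by 2.19, Tpp1, a tripeptidyl peptidase, by 2.01 and Gla, the alpha-galactosidase that clears globotriaosylceramide, by 3.31. Ctsf (0.20), Ctsh (0.03), Smpd1, the acid sphingomyelinase (0.44), and Man2b1, the lysosomal alpha-mannosidase (0.34), did not pass the test.

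The cathepsins were not ordered alike in all cells. Per kilobase, Ctss, the protease that trims the invariant chain in DCs, had the highest mean of the 10 cathepsins in both genotypes of every cell type except alveolar macrophages. There Ctsd led, with 55230.4 normalised counts per kilobase in WT against 28828 for Ctss. In WT inflammatory DCs the values were 90759 for Ctss and 67398 for Ctsd. The second in rank was Ctsb in WT spleen CD8a DCs, Ctsz in spleen CD11b DCs and Ctsh in WT lung CD11b DCs.

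WT lung CD11b DCs held more than WT spleen CD11b DCs of 30 of 46 members (background 21.1% higher), and less of 1 (background 13.8%), with a median of 0.64 against 0.01 over all genes. Atp6v0d2 and Ctsk passed the filter on low values through the lung groups alone, since in WT spleen CD11b DCs Atp6v0d2 read 1.79 and 5.08 and Ctsk 0.90 and 0, near or under the 3 reads taken as the floor. Lgmn read 837 and 624 in spleen and 3572, 3314 and 3193 in lung, a log2 difference of 2.21 ± 0.23 (SE, limma adjusted p = 5.47e-08). Atp6v0a1, a membrane-sector subunit that directs the pump to its compartment, read 288 and 211 in spleen and 1014, 992 and 710.2 in lung (1.85 ± 0.15, adjusted p = 1.55e-09). Ctsf read 4.49 and 6.77 in spleen and 65.0, 118 and 106 in lung (3.85 ± 0.35, adjusted p = 7.91e-09). All of these stood apart between the organs, as did Npc2, which passes cholesterol to Npc1, with 1699 and 1689 and 4256, 4100.4 and 3715 (higher by 1.24). Scarb2 was higher in lung by 1.29 and Gusb by 1.19. Gla was the member lower in lung (-0.99, limma adjusted p = 0.00724). Markers of other cells differed between the same libraries. Higher in lung were 9 of 10 markers of alveolar macrophages (sums 178 to 218 in spleen and 2166 to 4823 in lung), 7 of 12 of general macrophages (8889.8 to 11625 and 25265 to 29207) and 7 of 9 of monocytes (11319 to 15840.4 and 74234 to 83733). So were 4 of 6 markers of T and NK cells (67.3 to 141 and 283 to 729.6) and 5 of 7 of epithelium, endothelium and stroma (761 to 946 and 976 to 3013). The part of these lists was not tested.

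The 2 spleen DC types of WT mice differed in both directions, with 15 members higher in CD8a DCs (background 12.2%) and 8 lower (background 10.8%). The largest difference by p was in Gusb, the beta-glucuronidase, which read 5895 and 6854 in CD8a DCs and 1019 and 1028 in CD11b DCs (2.63 ± 0.14, limma adjusted p = 1.43e-12). Psap, the precursor of the saposins that present lipids to hydrolases, read 46262 and 58129.6 and 15215 and 17377 in the same order and was higher in CD8a DCs by 1.67. Lipa was higher by 0.99, Npc2 by 1.04 and Ctsf by 3.02. Ctsa, the carboxypeptidase that protects Neu1, read 2442 and 2234 in CD8a DCs and 5664 and 5941 in CD11b DCs (-1.31 ± 0.12, limma adjusted p = 1.99e-08). Gusb and Ctsa kept their calls in each fit that left out 1 library, whereas Ctsd, called higher at 1.26, lost its call without WT CD8a replicate 2 (0.85, adjusted p = 0.129) or without WT CD11b replicate 1 (0.99, adjusted p = 0.0956). Markers of splenic red pulp and general macrophages summed to 33104 to 56745 in WT CD8a DCs and to 8889.8 to 11625 in WT CD11b DCs. Their part in these differences was not tested.

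The levels of the followed members over the WT groups are given here as mean ± SD in the order spleen CD8a DCs, spleen CD11b DCs, DCs of the lung, macrophages of the alveoli and inflammatory DCs. Ctss read 7566 ± 188, 10991 ± 1119.9, 21667 ± 927, 39062 ± 326 and 122979 ± 18425. Ctsl read 253 ± 34.7, 117 ± 4.22, 381 ± 46.6, 2532 ± 44.9 and 14372 ± 7635, with alveolar macrophages between lung CD11b DCs and inflammatory DCs. Lamp1 read 3308 ± 480.4, 3314 ± 275, 5665 ± 158, 17438 ± 269 and 25752 ± 4574, and the spleen types did not differ by more than their spread (-0.01 ± 0.17, limma adjusted p = 1). Grn read 3794 ± 709, 1776 ± 123, 3987 ± 144, 9605 ± 52.8 and 17175 ± 3528, lowest in spleen CD11b DCs. Its lung CD11b DCs and alveolar macrophages had a difference of 1.27 ± 0.14 (limma adjusted p = 6.4e-08). Atp6v0d1 read 775 ± 40.3, 608 ± 43.5, 827 ± 49.5, 1902 ± 36.1 and 1772 ± 138, a narrow span beside that of Atp6v0d2.

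Lung CD11b DCs were the cells in which most members rose in KO. Of 46 members, 33 were higher in KO (background 12.0%) and 2 were lower (background 14.0%), and the median log2 difference was 0.66 against -0.05 over all genes. The set's share of reads went from 1.83 to 1.93% in WT to 2.46 to 3.62% in KO. The rise covered 13 of 15 pump genes (median 0.68), 8 of 10 cathepsins (0.89), 7 of 9 membrane proteins with cofactors (0.94) and 5 of 12 other hydrolases (0.30).

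**Figure D2:**
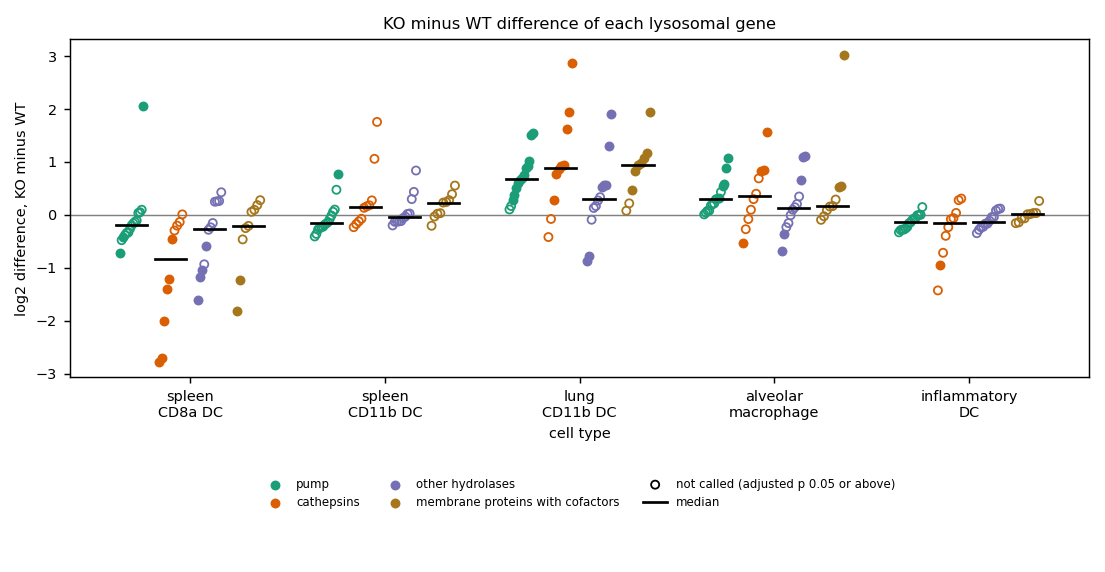
Log2 difference between KO and WT of each tested member (points, by role) in the 5 cell types, with filled points for called members and a line at the median of each role. In lung CD11b DCs most points lie above 0, in spleen CD8a DCs the called points lie below 0 apart from Atp6v0d2, and in spleen CD11b and inflammatory DCs 1 member each was called.

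In the pump of lung CD11b DCs, Atp6v1c1, a stalk subunit that joins the catalytic head to the membrane, read 661, 700.0 and 705 in WT and 1299, 2460.1 and 2372 in KO, a log2 difference of 1.51 ± 0.17 (SE, limma adjusted p = 8.78e-07). The ATP-binding subunit Atp6v1b2 read 2201, 1837 and 2274 in WT and 3425, 5129 and 4383 in KO (1.02 ± 0.12, adjusted p = 1.16e-06). The groups did not overlap for either gene, and KO replicate 1 was the KO library closest to WT. The d subunits both rose, Atp6v0d1 by 0.60 and Atp6v0d2 by 1.54, but the Atp6v0d2 values differed widely between KO libraries (243, 698 and 1036, against 183, 236 and 164 in WT). Its share of the sum of d subunits per kilobase was 12.4, 24.2 and 34.1% in the 3 KO libraries, and the first of these lay within the WT range. Atp6ap1, an accessory subunit, and Atp6v1f, a rotor subunit, did not pass the test.

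Among the cathepsins of lung CD11b DCs, Ctsd read 4945, 4547 and 4428 in WT and 9340.2, 21630.2 and 28092 in KO, a log2 difference of 1.94 ± 0.26 (SE, limma adjusted p = 8.22e-06). Ctsz read 7541, 7683 and 6529 in WT and 13628, 13408 and 15003 in KO (0.95 ± 0.10, adjusted p = 4.87e-07), with all 3 KO libraries close together. Ctsl read 388, 331 and 423 in WT and 751, 1391 and 1541 in KO (1.63 ± 0.26, adjusted p = 6e-05). Each of these 3 cathepsins was higher in every KO library than in any WT library. Ctss, the cathepsin with the highest level per kilobase in these cells, read 21944, 20633 and 22423 in WT and 29103, 44717 and 52353 in KO (0.92 ± 0.15, adjusted p = 7.29e-05). Ctsk read 73.7, 104 and 21.8 in WT and 202, 528 and 644 in KO, with the widest relative spread of the cathepsins in both genotypes. Ctsf, a cysteine protease of low level here (65.0, 118 and 106 in WT and 63.9, 73.9 and 71.5 in KO), and Ctsh did not pass the test.

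Of the other hydrolases in lung CD11b DCs, Gla read 160.3, 92.0 and 182 in WT and 358, 493 and 803 in KO, a log2 difference of 1.90 ± 0.25 (SE, limma adjusted p = 4.8e-06). Lgmn, which activates several cathepsins by cleavage, read 3572, 3314 and 3193 in WT and 5700.1, 8878 and 11076 in KO (1.30 ± 0.20, adjusted p = 5.41e-05). Tpp1, Neu1 and Gaa, the acid alpha-glucosidase that degrades glycogen, rose by 0.56, 0.52 and 0.56. The 2 members that fell were hydrolases: Man2b1 read 5567, 5589 and 6042 in WT and 3927, 2394 and 3996 in KO (-0.77 ± 0.14, limma adjusted p = 0.000243), and Smpd1 fell by 0.87 with groups that overlapped. The glycosidases Gusb, Hexa and Glb1, the lipase Lipa and the ceramidase Asah1 did not pass the test.

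Among the membrane proteins, Cd63 read 972, 1009.8 and 882 in WT and 2521, 4370.2 and 4502 in KO, a log2 difference of 1.95 ± 0.19 (SE, limma adjusted p = 1.23e-07), the smallest p of all members in lung CD11b DCs. Lamp1 read 5782, 5485 and 5728 in WT and 8916, 13159 and 14516 in KO (1.08 ± 0.14, adjusted p = 3.37e-06). Grn, progranulin, whose loss is known to impair lysosomes, read 3864, 4146 and 3952 in WT and 7139, 9765 and 10412 in KO (1.17 ± 0.14, adjusted p = 1.71e-06). For all 3 genes KO replicate 1 was the lowest KO library and still lay above every WT library. The cholesterol exporters Npc1 and Npc2 rose by 0.83 and 0.94, the former with overlapping groups, as did Scarb2 and the pump gene Atp6v0e. Psap and Mcoln1 did not pass the test.

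**Figure D3:**
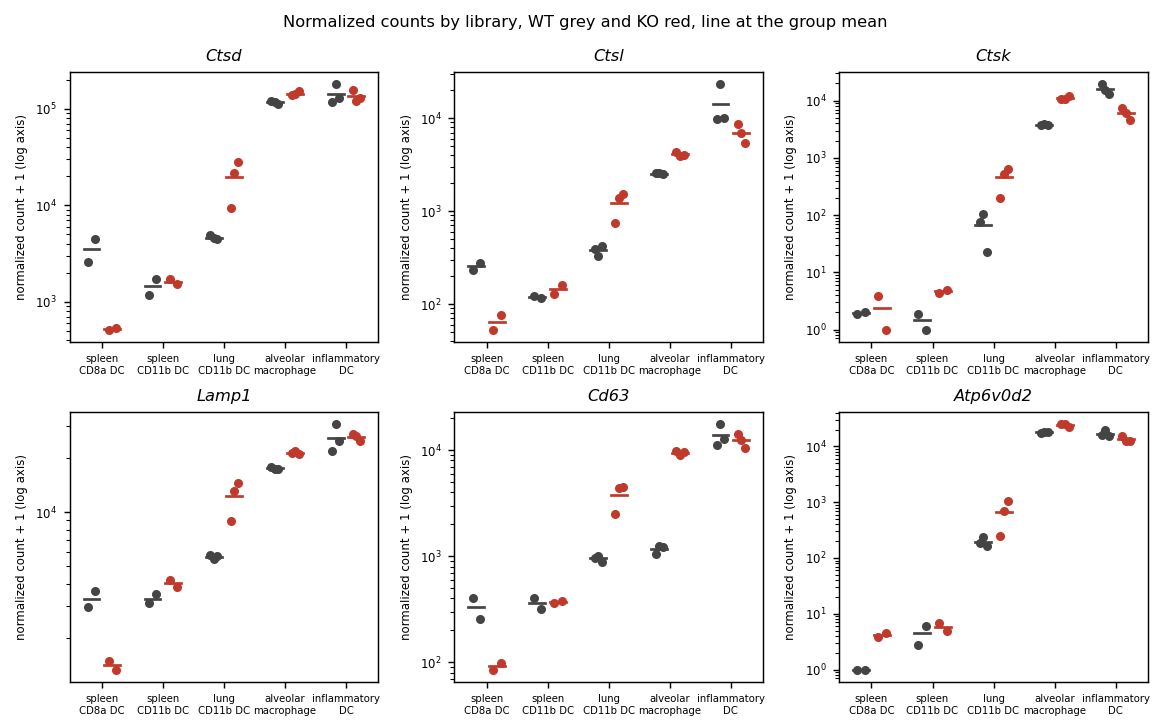
Normalised count + 1 (log axis) of Ctsd, Ctsl, Ctsk, Lamp1, Cd63 and Atp6v0d2 in each library, by cell type, with WT in grey, KO in red and a line at the group mean. For Ctsd, Lamp1 and Cd63 the lung CD11b KO libraries spread more than the WT libraries, Cd63 stands apart between genotypes in alveolar macrophages, and Ctsd, Ctsl, Lamp1 and Cd63 are lower in KO in spleen CD8a DCs.

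The lung CD11b libraries fell into 2 sets by the number of genes detected, and each set held both genotypes. WT replicate 3 and KO replicates 2 and 3 had 12992 to 13173 genes above 0, the others 13876 to 14407. Within the libraries with more genes, KO replicate 1 exceeded the mean of WT replicates 1 and 2 in 37 of all 46 members tested, with a median log2 difference of 0.35, against 47.7% and a median of -0.01 over all genes. Within those with fewer genes, the mean of KO replicates 2 and 3 exceeded WT replicate 3 in 40 of 46, with a median of 0.91, against 46.8% and -0.01. Ctsf, Ctsh, Glb1, Man2b1 and Smpd1 were lower in KO in both sets. The difference within each set was 0.98 and 2.48 for Ctsd, 1.35 and 2.33 for Cd63, 0.84 and 1.12 for Ctsz, and 0.23 and 2.36 for Atp6v0d2. Without the 3 libraries with fewer genes, 13 members were called, 12 of them higher, and Atp6v0d2 (adjusted p = 0.72), Ctsl (0.0582), Lgmn (0.089), Ctss (0.0663) and Atp6v0d1 (0.0654) lost their calls. Without KO replicate 1, the only lung CD11b library with a high sum of Y-chromosome transcripts, 36 members were higher and 2 lower. Markers of other cells moved as well: 4 of 7 markers of conventional DCs were lower in KO (sum 631619.6 to 730485 in WT and 371619.8 to 406659.6 in KO), as were 3 of 7 of cDC2 (sum 61859.6 to 68817 and 23484 to 34082) and 5 of 10 of alveolar macrophages (sum 2166 to 4823 and 1478 to 2842). General macrophage markers summed to 25265 to 29207 in WT and 30857 to 40437 in KO, with 3 of 12 higher and 2 lower. Monocyte markers summed to 74234 to 83733 in WT and 75643 to 105454 in KO, with 2 of 9 higher and 0 lower. The part of these lists in the rise of the lysosomal genes was not tested.

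In alveolar macrophages 14 of 46 members rose in KO (background 10.5%) and 3 fell (background 6.39%), with a median of 0.21 against 0.02 over all genes. The set took 4.37 to 4.41% of reads in WT and 5.49 to 5.94% in KO. Cd63 read 1038, 1238 and 1216 in WT and 9764, 8935 and 9689.7 in KO, a log2 difference of 3.02 ± 0.19 (SE, limma adjusted p = 6.78e-11). This was the smallest p of any member in the 5 comparisons of KO with WT, and every KO library was far above every WT library. In the pump, Atp6v0a1 read 1703, 1629 and 1812 in WT and 3329, 4134 and 3365 in KO (1.07 ± 0.14, limma adjusted p = 3.96e-06). Atp6v1c1 read 1969, 2106 and 1895 in WT and 3612, 3981 and 3441 in KO, again without overlap. Together with Atp6v1a, Atp6v1e1 and Atp6v1g1, all of the ATP-hydrolysing sector, it rose by 0.88, 0.58, 0.54 and 0.33. Among the cathepsins, Ctsz read 11499, 11370.4 and 11468 in WT and 21266, 20214 and 19723 in KO (0.83 ± 0.10, limma adjusted p = 2.75e-06). Ctsb, a cysteine protease, read 25506, 25366 and 25367 in WT and 45555, 44820.0 and 46869 in KO (0.85 ± 0.19, adjusted p = 0.003), and Ctsk read 3688, 3863 and 3743 in WT and 10746, 10789 and 12122 in KO (1.57 ± 0.47, adjusted p = 0.0202). All 3 rose without overlap of the groups. Ctsh fell, from 5940.2, 5883 and 6056 to 4055, 3921 and 4459 (-0.53 ± 0.09, limma adjusted p = 0.000104).

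Of the other hydrolases in alveolar macrophages, Lgmn read 2244, 2470.3 and 2345 in WT and 4781, 4918 and 5326 in KO (1.09 ± 0.20, limma adjusted p = 0.000415), and Gla and Gaa rose by 1.12 and 0.67. Man2b1 read 5796, 5693 and 5680.1 in WT and 3072, 3562 and 4186 in KO (-0.68 ± 0.14, adjusted p = 0.00107), and Gusb fell by 0.36. Man2b1 was thus called lower in both lung cell types of steady-state KO mice. Of the members called higher in alveolar macrophages, all but Psap were also called higher in lung CD11b DCs. Among these were Cd63, Ctsz, Lgmn, Gla and Atp6v1c1. Npc2 read 3900.4, 4039 and 4004 in WT and 5626, 5264 and 6364 in KO (0.53 ± 0.11, adjusted p = 0.00175), and Psap rose by 0.55. Ctsd, the cathepsin with the highest level per kilobase in these cells, read 121184, 118071 and 113170.2 in WT and 138451, 142805 and 152519 in KO, without overlap, and its difference did not pass the test (0.30 ± 0.26, limma adjusted p = 0.541). In a fit of the alveolar macrophage libraries alone, whose replicates lay close together, Ctsd did pass (adjusted p = 0.0139) and 31 members were called, 26 of them higher. Lamp1 (0.29, adjusted p = 0.166), Ctsl (0.69, 0.0714), Ctss (0.40, 0.0679) and Atp6v0d2 (0.43, 0.453) were not called over all libraries and were called in that fit. Atp6v0d2 read 17509, 17983 and 17874 in WT and 24824, 25085 and 22191 in KO, and Atp6v0d1 read 1871, 1942 and 1894 in WT and 1811, 2039 and 1904 in KO. Genotypes stood apart for the former and overlapped for the latter. Grn read 9604, 9658 and 9553 in WT and 9274, 10268 and 11185 in KO, with overlap. Of the 10 alveolar macrophage markers 3 were lower in KO, and the list summed to 305284 to 314722 in WT and 172405 to 192169 in KO. General macrophage markers were higher for 5 of 12 and lower for 1, with sums of 17136 to 18009 and 14918 to 17265. Markers of T and NK cells were higher for 5 of 6 (sums 9.76 to 14.8 and 77.9 to 122), and those of neutrophils for 3 of 5 tested (sums 97.1 to 129 and 628 to 846). Monocyte markers were higher for 4 of 9 (sums 248243 to 250609 and 183244 to 200219), and cDC2 markers for 3 of 7 (sums 28273 to 28649.8 and 24662 to 26679.8), in both lists with a lower sum in KO. Their part in these differences was not tested.

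Spleen CD8a DCs went the other way, with 14 of 46 members lower in KO (background 3.63%) and 1 higher (background 1.5%), and a median of -0.26 against 0.00 over all genes. Cathepsins made up 6 of the 14 falls, and their share of reads went from 0.445 to 0.572% in WT to 0.278% in both KO libraries. Ctsd read 2568 and 4527 in WT and 514 and 528 in KO, a log2 difference of -2.71 ± 0.32 (SE, limma adjusted p = 3.51e-06). Ctsl read 229 and 278 in WT and 52.1 and 74.5 in KO (-2.00 ± 0.32, adjusted p = 0.000179). Ctsf, at a low level, read 44.5 and 60.8 in WT and 4.65 and 9.61 in KO (-2.78 ± 0.39, adjusted p = 3.16e-05). None of these 3 overlapped between genotypes. Ctsb, Ctsc, the dipeptidyl peptidase that activates granule proteases, and Ctsa fell by 1.39, 1.21 and 0.46. Ctss, the leading cathepsin of these cells per kilobase, read 7433 and 7699 in WT and 6185 and 6156 in KO and was not called (-0.29 ± 0.18, limma adjusted p = 0.45). The falls among other hydrolases were Lgmn, Neu1, Tpp1 and Lipa. Lgmn read 1149 and 1993 in WT and 489 and 507 in KO (-1.60 ± 0.25, limma adjusted p = 0.000147), and Neu1 read 362 and 312 in WT and 152 and 147 in KO (-1.17 ± 0.15, adjusted p = 1.19e-05). Both were lower in both KO libraries than in either WT library.

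Cd63 and Lamp1 were the membrane proteins that fell in spleen CD8a DCs. Cd63 read 407 and 255 in WT and 84.7 and 98.5 in KO (-1.81 ± 0.24, limma adjusted p = 1.41e-05), and Lamp1 read 2968 and 3647 in WT and 1489 and 1338 in KO (-1.22 ± 0.17, adjusted p = 2.45e-05). In the pump only the membrane-sector genes Atp6v0d1 and Atp6v0b fell among the 15 tested, by 0.72 and 0.42. Atp6v0d2, the gene called higher, read 0 and 0 in WT and 2.79 and 3.60 in KO, which is 3 reads in each KO library and so at the floor. Its call was lost with edgeR (adjusted p = 0.418), with DESeq2 (0.104) and with a pseudocount of 8 (0.537). Psap (0.10, limma adjusted p = 0.877) and Grn (3292 and 4295 in WT and 3260.5 and 3068 in KO, difference -0.25, 0.523) did not pass the test. In the same libraries all 12 markers of splenic red pulp and general macrophages were lower in KO, with sums of 33104 to 56745 in WT and 3164 to 3539.7 in KO. Markers of cDC1, the lineage of CD8a DCs, summed to 41822 to 43999 in WT and 50274 to 53706 in KO. The part of macrophage RNA in the falls was not tested.

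In spleen CD11b DCs and inflammatory DCs 1 member each was called. In spleen CD11b DCs this was Atp6v0a1, which read 288 and 211 in WT and 408 and 435 in KO, a log2 difference of 0.77 ± 0.17 (SE, limma adjusted p = 0.017) (background 1.28% higher and 0.233% lower). Its call was lost without WT replicate 2 (0.55, adjusted p = 0.367), without KO replicate 1 (0.82, 0.099) or without KO replicate 2 (0.72, 0.181). The median log2 difference of the set was -0.02, against -0.00 over all genes. Scarb2 read 395 and 435 in WT and 638 and 582 in KO (0.55 ± 0.15, limma adjusted p = 0.077), and Gla read 252 and 303 in WT and 505 and 486 in KO (0.84 ± 0.30, adjusted p = 0.201). Ctsd read 1181 and 1719 in WT and 1729 and 1512 in KO and Lamp1 3119.7 and 3509 in WT and 4204 and 3835 in KO, neither of which passed. Both genotypes overlapped for Ctsd. Psap read 15215 and 17377 in WT and 22714 and 20025 in KO (0.39 ± 0.18, limma adjusted p = 0.348), Lgmn read 837 and 624 in WT and 927 and 1031 in KO (0.529) and Ctsf read 4.49 and 6.77 in WT and 12.6 and 12.6 in KO (0.21). Atp6v0e, a small membrane-sector subunit, read 1789 and 1988 in WT and 1449 and 1493 in KO (-0.36 ± 0.12, adjusted p = 0.163). Ctsk stayed at low counts, 0.90 and 0 in WT and 3.43 and 3.89 in KO. For other followed members the log2 differences were 0.28 for Ctsl, 0.13 for Ctss, 0.24 for Grn and -0.01 for Atp6v0d1, with adjusted p between 0.656 and 1. Scarb2 (adjusted p = 0.0471) and Gla (0.0118) did pass in a limma fit of these 4 libraries alone. The share of reads was 1.20 to 1.33% in WT and 1.26 to 1.29% in KO, so the ranges overlapped. General macrophage markers were higher in KO for 2 of 12, with sums of 8889.8 to 11625 and 14878 to 16371, and their part was not tested.

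In inflammatory DCs the member called was Ctsl, lower in KO (background 1.92% lower and 1.45% higher). It read 9786, 23185 and 10145 in WT and 8573, 6917 and 5426 in KO, a log2 difference of -0.95 ± 0.26 (SE, limma adjusted p = 0.0424). All 3 KO values lay under the lowest WT value, and the call was lost without WT replicate 2 (-0.54, adjusted p = 0.241), without KO replicate 2 (-0.95, 0.119), without KO replicate 3 (-0.78, 0.216), with no filter on low values (0.0648) and in a fit of these libraries alone (0.115). The median of the set was -0.09 against -0.02 over all genes. Ctsk read 19382, 15180.5 and 13229 in WT and 7387, 6039 and 4500.2 in KO, without overlap but also without a call (-1.43 ± 0.47, limma adjusted p = 0.105). Ctsh read 8171, 10427 and 9002 in WT and 10597, 11669 and 11080.0 in KO (0.28 ± 0.09, adjusted p = 0.0875) and was called without WT replicate 2 (0.37, adjusted p = 0.0209). Cd63 read 11070.4, 17546 and 12665 in WT and 14137, 12335 and 10514 in KO and Ctsd 119337, 180545 and 130186 in WT and 157775, 121880.0 and 128700.3 in KO, and the groups overlapped for both. Atp6v1h, the regulatory subunit of the catalytic head, read 2268, 2564 and 2159 in WT and 1997, 2011 and 1721 in KO (-0.29 ± 0.11, limma adjusted p = 0.177), and Atp6v1b2 read 9125, 10346 and 8821 in WT and 8494, 7978 and 6892 in KO (-0.28 ± 0.12, 0.275). Neither gene overlapped between genotypes. Gusb, Tpp1, Npc2 and Mcoln1, the members of their roles with the smallest p, had differences of -0.22, -0.28, 0.26 and -0.16, with adjusted p of 0.379, 0.391, 0.278 and 0.752. Ctss (0.31), Lamp1 (0.04), Grn (0.02), Atp6v0d1 (-0.14) and Atp6v0d2 (-0.33) were not called either. Alveolar macrophage markers differed in these libraries too, with 4 of 10 lower in KO. Their sums were 791621 to 1156964 in WT and 419473 to 1035122 in KO. In WT most of these sums came from Chi3l3, whose mean is given above. Of the 7 conventional DC markers 4 were lower in KO, with overlapping sums of 193483 to 227414 and 185319.9 to 284176, and the part of either list was not tested.

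**Figure D4:**
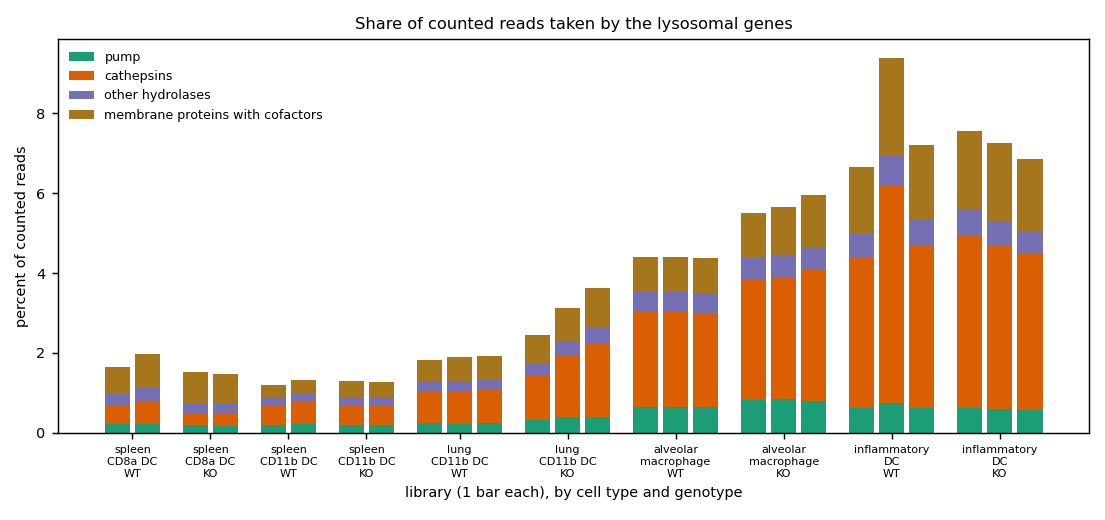
Share of each library's reads (percent) taken by the pump, the cathepsins, the other hydrolases and the membrane proteins with cofactors, by cell type and genotype, as stacked bars with 1 bar per library. The share of cathepsins was 0.777 to 0.820% in WT and 1.14 to 1.83% in KO lung CD11b DCs, and 2.35 to 2.39% in WT and 3.02 to 3.28% in KO alveolar macrophages.

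Whether the difference between KO and WT itself varied between cell types was tested with interaction contrasts in limma, which treat all libraries as independent. In the spleen KO libraries the Y-chromosome sums were 977 and 3049 in CD8a DCs and 932 and 3295 in CD11b DCs, replicates 1 and 2 in each. Xist, expressed in female cells, read 3620 and 12.0 in CD8a DCs and 3092 and 21.4 in CD11b DCs. Replicate 1 of each thus held transcripts of both sexes. Xist and high Y-chromosome sums also occurred together in all 3 KO libraries of alveolar macrophages (Xist 1487, 2293 and 572). The same held for KO replicate 1 of lung CD11b DCs (Xist 1450) and WT replicate 1 of inflammatory DCs (717). Whether these libraries came from shared mice or pools is not given in the labels. Between the spleen DCs the KO difference was more negative in CD8a than in CD11b DCs for 12 members (background 2.25% lower and 0.195% higher), with a median of -0.23. Besides the cathepsins Ctsd, Ctsf, Ctsl, Ctsb and Ctsc, these were Lgmn, Neu1, Tpp1, Lamp1, Cd63, Atp6v0a1 and Atp6v0d1. All 12 markers of splenic red pulp and general macrophages were called more negative in the same contrast, with a median of -4.70. Their part in it was not tested. In CD11b DCs the KO difference was more positive in lung than in spleen for 23 members (background 5.86% higher and 6.6% lower), and 11 of these were pump genes, led by Atp6v1c1 at 1.92. That count was 10 without spleen CD11b WT replicate 2 and 7 without the lung CD11b libraries with fewer genes. Alveolar macrophages differed from lung CD11b DCs in 14 members with a more negative and 2 with a more positive KO difference (background 6.6% lower and 10.2% higher). The 2 were Cd63 (1.08, limma adjusted p = 0.00804) and Smpd1 (1.01, adjusted p = 0.0323), the latter with a KO difference of -0.87 in lung CD11b DCs and 0.15, not called, in alveolar macrophages, while Ctsd (-1.65) and Grn (-1.08) were among the 14. The total of 16 became 25 without lung CD11b KO replicate 1 and 3 without the lung CD11b libraries with fewer genes. Inflammatory DCs had a more negative effect than lung CD11b DCs in 29 members and a more positive one in 2 (background 6.95% lower and 6.08% higher), the latter Man2b1 and Smpd1. This total of 31 became 14 without the lung CD11b libraries with fewer genes. These contrasts share the lung or spleen CD11b libraries, so they are not independent of each other.

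The members with and without CACGTG in the promoter are set side by side as a description, leaving out Atp6v0c, which was not tested. In lung CD11b DCs (background 12.0% higher) 11 of 14 with the motif rose in KO (median 0.58), and 15 of 23 without it (median 0.68). In spleen CD8a DCs (background 3.63% lower) 8 of 14 with the motif fell (median -0.44), and 5 of 23 without it (median -0.25). In alveolar macrophages (background 10.5% higher) 4 of 14 with the motif rose (median 0.25), and 7 of 23 without it (median 0.21). Lamp1 with its 4 matches rose in lung CD11b DCs and fell in spleen CD8a DCs, and so did Cd63, whose printed stretch holds none.

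A list of 77 further genes that holds none of the members was counted in the same way. It held other lysosomal genes and 10 inhibitors of cathepsins, which are not all lysosomal. Of the 62 tested, 23 were higher (background 12.0%) and 12 lower (background 14.0%) in KO lung CD11b DCs, with a median of 0.28. In alveolar macrophages 10 were higher (background 10.5%) and 6 lower (background 6.39%), with a median of 0.02, and in spleen CD8a DCs 7 were lower (background 3.63%). In spleen CD11b DCs 2 were higher (background 1.28%) and 1 lower (background 0.233%), and in inflammatory DCs 1 was lower (background 1.92%). Igf2r, the receptor that delivers enzymes tagged with mannose 6-phosphate, rose by 2.92 in lung CD11b DCs (limma adjusted p = 0.000422) and by 3.95 in alveolar macrophages (adjusted p = 1.26e-05). Cstb, a cytosolic cathepsin inhibitor, rose by 2.09 and 0.69 in the same cells and fell by 0.76 in spleen CD8a DCs. All 4 tested cathepsin inhibitors (Cst3, Cst7, Cstb and Serpinb6a) rose in alveolar macrophages and are among the 10 genes counted as higher there. Clcn7, the chloride-proton exchanger that works beside the pump, rose by 1.67 in lung CD11b DCs, and the sulfatase Galns by 1.84, while the sulfatases Arsb and Sgsh fell by 1.98 and 1.75. In spleen CD8a DCs the phospholipase Pla2g15 fell by 3.49 and the acid phosphatases Acp2 and Acp5 by 2.07 and 1.86, beside the fall of the macrophage markers given above.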

How the data were processed

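RNA-seq of 26 libraries was analysed. The tools named in the submitters' processing notes are STAR 2.3.1s, HTSeq and DESeq2 1.10.1, with the build mm10. The deposited table therefore held a signal per gene symbol, that is, read counts scaled by 1 size factor per library. The annotation and whether counting used strand are not given in the sources used here, so overlapping, antisense or duplicated genes may share reads. Whole reads were recovered for 100% of values (tolerance 1e-06), with size factors of 0.754 to 1.48.

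The log2(normalised count + 1) values of the 13311 genes at 10 or more in at least 2 libraries (46 of 47 members) were fitted with limma 3.58.1 in R 4.3.3, with a mean per group, all libraries and Benjamini-Hochberg adjustment within each of 13 comparisons. Errors are moderated standard errors unless marked SD. Alternatives were other pseudocounts, no filter, TMM factors, edgeR 4.0.16 and DESeq2 1.42.0 on the recovered reads, sample weights, fewer libraries and leaving out each library. A term for the lung CD11b libraries with fewer detected genes, and their omission, were chosen after seeing the data. Intervals cover counting error only. Levels per kilobase used the median length of principal coding transcripts in GENCODE M21, and other tables were made with pandas 2.3.3 in Python 3.11.15. Members with the smallest p in each role were named, with Ctsd, Ctsl, Ctss, Lamp1, Atp6v0d1, Atp6v0d2 and Grn throughout. Other called members were named by their difference, and uncalled ones after their values were seen. The members and lists were chosen with earlier results of these data known. The fit was tested on simulated data. No 2 libraries were identical.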

Additional observations from a re-analysis of the deposited data

Results flagged for a closer look

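The difference between KO and WT differed between cell types, by the test of the difference itself in limma, most clearly in the members given here. Spleen CD8a minus spleen CD11b DCs gave -3.84 for Ctsf (adjusted p = 7.72e-05), -1.499 for Lamp1 (0.000293) and -2.89 for Ctsd (0.000296), on the log2 scale. All 12 macrophage markers were called lower in that contrast too, with a median of -4.70, and their part was not tested. Lung minus spleen CD11b DCs gave 1.92 for Atp6v1c1 (limma adjusted p = 0.000131), 1.07 for Ctsz (0.00025) and 1.91 for Cd63 (0.000341). Alveolar macrophages minus lung CD11b DCs gave -1.08 for Grn (limma adjusted p = 0.000521), -1.004 for Lamp2 (0.00125) and -1.65 for Ctsd (0.00333). Inflammatory minus lung CD11b DCs gave -1.30 for Atp6v1b2 (limma adjusted p = 2.4e-05), -2.09 for Cd63 (2.5e-05) and -1.77 for Atp6v1c1 (4.81e-05). The last 3 comparisons share the lung CD11b libraries, and without those with fewer genes the values for Lamp2 and Ctsd in alveolar macrophages became -0.52 (adjusted p = 0.0689) and -0.68 (0.186).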

How the results depend on the processing

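The count of members called for KO against WT changed by more than 1.5 times under the settings given here. In spleen CD11b DCs 1 became 2 with DESeq2, 5 with sample weights and 3 with those libraries alone. In lung CD11b DCs 35 became 13 without the libraries with fewer genes, with fewer samples in the fit. In alveolar macrophages 17 became 27 with sample weights and 31 with those libraries alone. In inflammatory DCs 1 became 2 with a pseudocount of 8 or edgeR, 3 with DESeq2 or sample weights, and 0 with no filter (limma, 8 at an unadjusted p under 0.05). The counts for the difference between effects became 7, 3 and 14 without the lung libraries with fewer genes, from 23 for lung against spleen CD11b DCs, 16 for alveolar macrophages and 31 for inflammatory DCs. The cause of these changes was not tested. Leaving out 1 library gave 12 to 15 calls in spleen CD8a DCs, 0 to 1 in spleen CD11b DCs, 32 to 38 in lung CD11b DCs, 14 to 15 in alveolar macrophages and 0 to 1 in inflammatory DCs. It gave 16 to 20, 27 to 32, 38 to 40 and 42 to 43 in the 4 WT comparisons, in the order spleen CD8a, lung CD11b, alveolar macrophages and inflammatory DCs. For the differences between effects it gave 8 to 12, 10 to 30, 14 to 25 and 26 to 38. A lone sample is then assumed to vary like the other groups. The 0 in spleen CD11b DCs came without WT replicate 2 (6 at an unadjusted p under 0.05), KO replicate 1 (7) or KO replicate 2 (7), and in inflammatory DCs without KO replicate 2 (8) or KO replicate 3 (5).

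Signs turned only in differences that were not called. With TMM factors Atp6v0d1 in spleen CD11b DCs turned from -0.01 to 0.0043. Leaving out 1 library gave ranges from -0.113 to 0.0885 for Atp6v0d1, -0.0886 to 0.453 for Ctsd and -0.0847 to 1.04 for Atp6v0d2 in spleen CD11b DCs, and -0.0345 to 0.0507 for Atp6v0d1 in alveolar macrophages. In inflammatory DCs they were -0.181 to 0.118 for Ctsd, -0.0804 to 0.17 for Lamp1 and -0.0969 to 0.177 for Grn, and for Lamp1 between the WT spleen DCs -0.157 to 0.14. No paired analysis was possible because the labels give no replicate numbers shared between groups.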
